A study of Mus musculus with 10 samples.

Results

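The levels of 9 matrix proteoglycan genes were followed through 10 mouse tumors, 7 small leucine-rich proteoglycans (decorin, Dcn; biglycan, Bgn; lumican, Lum; fibromodulin, Fmod; osteoglycin, Ogn; asporin, Aspn; and prolargin, Prelp) and 2 large ones (versican, Vcan; and perlecan, Hspg2). They were chosen by gene name from the 21959 genes of the deposited table, and each of the 9 names was found there. The tumors had grown in female BALB/c mice, aged 5 to 6 weeks when obtained, after 4T1 cells, a mouse mammary carcinoma line, had been injected under the skin of the abdomen. In the exercise group, 5 mice ran voluntarily (E, tumors E1 to E5), and in the non-exercise group 5 were kept without intervention (NE, tumors NE1 to NE5), for 21 days in both groups, and 1 mRNA library was sequenced for each mouse. All the tumors came from a single cell line placed in a host with its immune system, so that transcripts of tumor cells and of host stroma were read together.

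Small leucine-rich proteoglycans have a compact core protein of leucine-rich repeats that binds fibrillar collagen and sets how the fibrils assemble. Several of them also hold growth factors such as TGF-beta in the matrix, and soluble biglycan and decorin can engage Toll-like receptors. Versican is a large chondroitin sulfate proteoglycan that binds hyaluronan, whereas perlecan is a heparan sulfate proteoglycan of basement membranes, including those of blood vessels. In tumors, most of these proteins are known as products of fibroblasts, with tumor cells and myeloid cells as further sources of versican.

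In the mouse annotation (GENCODE M21, GRCm38), several members lie beside their relatives. Dcn (chr10:97479609-97518143) and Lum (chr10:97565128-97572703) are neighbors on the forward strand of chromosome 10, 46984 bp apart, with the keratocan gene Kera next in line. Aspn (chr13:49544443-49567565) and Ogn (chr13:49608046-49624501) lie on the forward strand of chromosome 13 with the related gene Omd between them. Prelp (chr1:133910304-133921414, reverse strand) and Fmod (chr1:134037254-134048277, forward strand) are neighbors on chromosome 1 with 115839 bp between them. Bgn lies on the X chromosome (chrX:73483602-73495933, forward strand). Vcan lies on the reverse strand of chromosome 13 (chr13:89655312-89742509) beside Hapln1, which encodes a link protein for hyaluronan, and Hspg2, with up to 97 exons, lies on the forward strand of chromosome 4 (chr4:137468769-137570630). The deposited table counts reads over whole genes, and its own coordinates are of a build that the sources used here do not name. An antisense gene shares 350 exon bases with Prelp and Cenpp shares 7 with Aspn. As the strand setting of the counting is not given, reads of the opposite strands could not be told apart there. Of the stretches of 50 bases in the members' transcripts, 7 of 6321 of Bgn and none of the other 8 genes occur in a transcript of another gene.

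Sequences before the start sites are shown as a description of the genes. RefSeq (GRCm38.p6) gave the 250 bases before the start of 7 of the 9 members, and motifs were searched in them on both strands. Perlecan, the steadiest member, is shown with asporin and osteoglycin, a neighboring pair, and with biglycan, the most abundant member. Each runs 5′ to 3′ on the strand of the gene, and capitals mark a GC box (GGGCGG or its complement CCGCCC) or a TATA box (TATAAA or its complement TTTATA). The sequence of Hspg2 stops after 216 bases, where the gene begins in GENCODE M21.
Hspg2 (chr4:137468553-137468768, forward strand): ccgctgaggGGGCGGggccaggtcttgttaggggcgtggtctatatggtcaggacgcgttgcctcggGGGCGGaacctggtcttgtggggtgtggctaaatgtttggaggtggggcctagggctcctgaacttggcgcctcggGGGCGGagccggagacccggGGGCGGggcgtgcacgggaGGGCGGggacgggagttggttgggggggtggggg
Bgn (chrX:73483351-73483600, forward strand): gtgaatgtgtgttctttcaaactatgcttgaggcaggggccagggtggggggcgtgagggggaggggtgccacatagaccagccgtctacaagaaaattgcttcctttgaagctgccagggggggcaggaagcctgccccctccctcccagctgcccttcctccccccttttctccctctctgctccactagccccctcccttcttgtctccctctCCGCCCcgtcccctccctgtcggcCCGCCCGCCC
Aspn (chr13:49544193-49544442, forward strand): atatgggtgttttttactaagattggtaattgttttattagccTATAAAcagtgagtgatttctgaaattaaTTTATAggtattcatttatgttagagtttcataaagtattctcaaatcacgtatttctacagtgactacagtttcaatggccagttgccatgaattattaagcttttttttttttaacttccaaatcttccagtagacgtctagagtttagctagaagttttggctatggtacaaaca
Ogn (chr13:49607765-49608014, forward strand): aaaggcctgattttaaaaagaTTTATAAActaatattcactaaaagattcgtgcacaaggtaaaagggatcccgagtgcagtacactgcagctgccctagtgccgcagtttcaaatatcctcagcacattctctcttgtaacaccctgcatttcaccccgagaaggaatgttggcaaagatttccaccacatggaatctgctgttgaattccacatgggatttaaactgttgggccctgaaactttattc
The GC box occurred 5 times before Hspg2, 3 times before Bgn (2 of them overlapping) and 2 times before Vcan, and 0 times before Aspn, Ogn, Fmod and Prelp. Of all 32851 RefSeq promoter windows of this length, 32.7% held it. The TATA box occurred 2 times each before Aspn and Ogn, where the 2 matches of Ogn overlap on opposite strands, and 0 times before the other 5. It was present in 12.4% of all windows. An AP-1 motif (TGANTCA) was in none of the 7 and in 6.75% of all windows. These matches describe the letters of the windows and were not tied to binding. Whether they go with the level of a member or its spread between tumors was not tested.

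The counted reads numbered 15045613 to 20646763 in the libraries of E and 18706032 to 23092251 in those of NE. In CPM, a gene's reads scaled to the total count of its library, 3 reads stood for 0.130 to 0.199. The tumors E5, NE4 and NE1 stood apart in lists of marker genes, summarized as the mean log2(CPM + 1) of each list. E5 had the highest fibroblast score (6.10, other tumors 3.02 to 5.38) and the highest neutrophil score (4.50). NE4 had the highest skeletal muscle score (9.81, against 0.424 to 7.09 in the others) and the highest tendon score (3.49). NE1 had the lowest fibroblast (3.02), skeletal muscle (0.424) and macrophage (6.25) scores. The fibroblast score did not separate the groups (mean 4.93 in E and 4.33 in NE, exact two-sided permutation test, p = 0.294). Of the epithelial markers of the labelled mammary cancer tissue, the keratins Krt8 (mean 0.448 CPM) and Krt18 (0.628 CPM) and the adhesion gene Epcam (1.28 CPM) were at most 3.13 CPM in any tumor, while Krt19 averaged 14.7 CPM and the E-cadherin gene Cdh1 11.1 CPM.

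Levels were compared between genes as FPKM, the read density per exon length and library size. The deposited length is 1 value per gene, 5838 nt for decorin and 6099 nt for biglycan, with 5 and 8 transcripts in GENCODE M21. For lumican, with 1 transcript, it is 2448 nt. The order of the genes and their shares of the summed FPKM depend on these lengths, whose origin is not stated. Biglycan was the most abundant member, with a mean of 63.1 FPKM over the 10 tumors, followed by perlecan (33.8), decorin (25.2), lumican (15.1), versican (14.2) and osteoglycin (14.0). Prolargin (4.63), asporin (3.03) and fibromodulin (3.03) were the lowest. Of the 8 steps in this order, 2 exceeded the spread between tumors in exact two-sided sign-flip tests with adjustment over the 8. The order was taken from the mean FPKM of these same tumors, while the tests used log2(FPKM + 1). Decorin lay above lumican in 10 of 10 tumors (exact adjusted p = 0.0156), and osteoglycin lay above prolargin in 9 of 10 (exact adjusted p = 0.0313). Biglycan and perlecan (biglycan higher in 8 of 10, exact adjusted p = 0.109) and perlecan and decorin (8 of 10, exact adjusted p = 0.109) were not separated. The same held for lumican and versican, versican and osteoglycin, prolargin and asporin, and asporin and fibromodulin (exact adjusted p from 0.25 to 0.514). Lumican lay above versican in 4 of 10 tumors. With the order made anew, 1 step passed without NE4 and 4 without NE1, and the pairs were then not all the same.

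**Figure D1:**
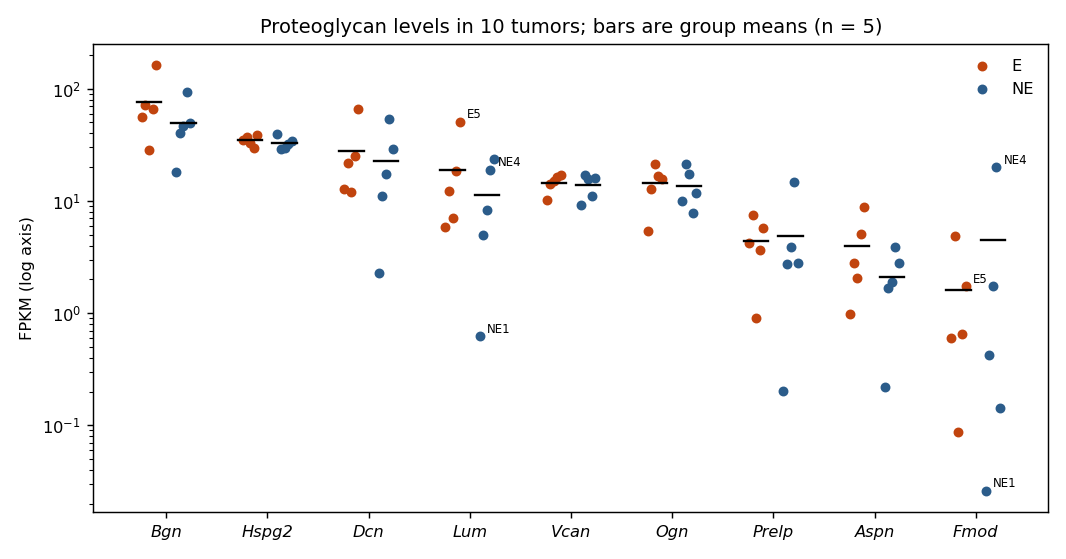
FPKM of the 9 proteoglycan genes (log axis) in each of 5 E and 5 NE tumors, with each point a tumor and each bar the group mean. The points of E and NE overlap for every gene, Hspg2 spans 29.1 to 39.8 and Fmod spans 0.0262 to 19.97.

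The summed FPKM of the 9 genes ranged from 80.3 in NE1 to 366 in E5. Biglycan made up 22.5% to 44.1% of that sum and was the largest part in 8 tumors. Perlecan was the largest part in E3 and NE1, with 49.5% in NE1 and 10.5% in E5. Decorin ranged from 2.83% (NE1) to 21.2% (NE4), and fibromodulin from 0.0326% (NE1) to 7.83% (NE4).

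**Figure D2:**
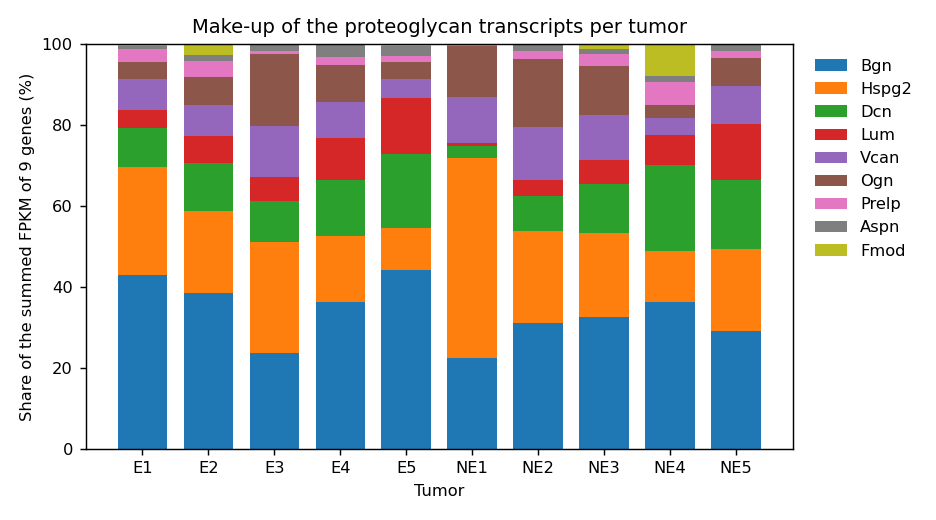
Share of each gene in the summed FPKM of the 9 proteoglycan genes (percent), 1 bar for each tumor. Bgn is the largest part in 8 tumors, and Hspg2 is the largest part in E3 and NE1.

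The comparison of E with NE asked whether the proteoglycan genes differed in the tumors of running mice. A difference was detected for none of the 9. With edgeR's quasi-likelihood test, 0 of the 9 members passed both limits of a call (2-fold or more, FDR up to 0.05), and 0% of the 13517 genes tested did. The unadjusted p was at most 0.05 for 0 members, against 4.86% of all genes (657), and the members' FDR ran from 0.897 to 0.990. DESeq2, limma-voom with sample weights, limma-trend and edgeR's exact test also called 0 members, though DESeq2 gave no p for fibromodulin. The groups overlapped in every member, whereas 0.725% of all genes did not overlap. The log2 fold change of E over NE was above 0 for 7 members and below 0 for 2, with a median of 0.044, beside -0.014 over all genes tested. The exact permutation p of the single genes ran from 0.294 to 0.944, and 5 against 5 tumors cannot go below 0.00794. In RNA of whole tumor pieces, fewer cells of a type and less RNA per cell cannot be told apart.

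**Figure D3:**
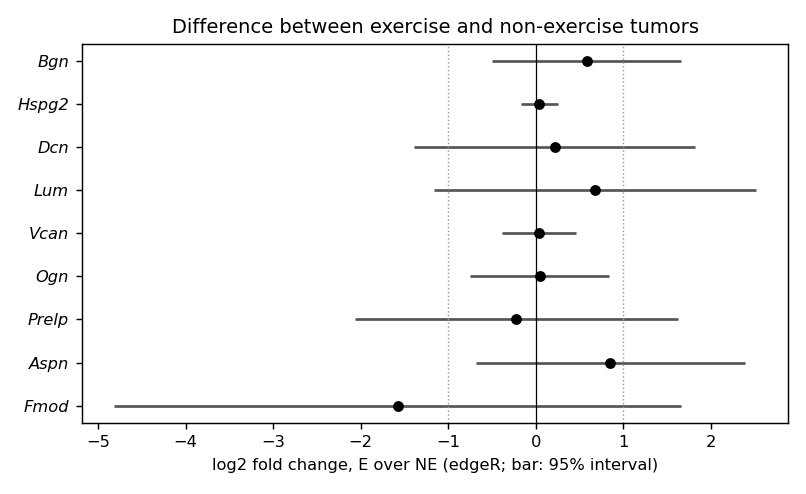
Log2 fold change of E over NE for each gene (points) with its 95% interval (bars) from edgeR, with dotted lines at a fold change of 2 in either direction. Every interval crosses 0, from -0.17 to 0.26 for Hspg2 and from -4.82 to 1.66 for Fmod.

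Decorin, which binds collagen and TGF-beta and restrains growth factor receptors, had 12.8, 21.7, 12.04, 25.2 and 66.4 FPKM in E1 to E5 and 2.27, 11.1, 17.2, 54.0 and 28.8 in NE1 to NE5. E5 and NE4 were high and NE1 was low, and the other tumors of both groups overlapped. The means were 27.6 ± 22.4 in E and 22.7 ± 19.98 in NE (SD over 5 tumors), and the log2 fold change was 0.22 (SE 0.725, 95% interval -1.39 to 1.83, edgeR FDR = 0.972). It was -0.39 without E5 and -0.061 without NE1.

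Biglycan, the closest relative of decorin and a danger signal when released from the matrix, had 56.3, 71.5, 28.3, 66.1 and 162 FPKM in E1 to E5 and 18.0, 40.0, 46.3, 92.8 and 49.6 in NE1 to NE5. E was higher in 18 of the 25 pairings of an E with an NE tumor, with E5 above all and NE1 below all. The means were 76.8 ± 50.3 and 49.3 ± 27.2 (SD, n = 5 each), with a log2 fold change of 0.58 (SE 0.486, 95% interval -0.49 to 1.66, edgeR FDR = 0.897). The ratio of biglycan to decorin was 1.72 to 7.95 over the tumors, highest in NE1, and its log2 difference between the groups was -0.014 (exact adjusted p = 0.976).

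Asporin, a relative of decorin that lacks glycosaminoglycan chains and is known from cancer-associated fibroblasts, had 0.988, 2.80, 2.06, 5.11 and 8.84 FPKM in E1 to E5 and 0.221, 1.66, 1.91, 3.89 and 2.82 in NE1 to NE5. The low end was set by 12 reads in NE1. The log2 fold change of asporin was 0.86 (SE 0.695, 95% interval -0.68 to 2.39, edgeR FDR = 0.897), the most positive of the members. Per decorin, asporin differed by 0.40 on the log2 scale between E and NE (exact adjusted p = 0.825).

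Lumican, a keratan sulfate proteoglycan that regulates collagen fibril thickness, had 5.80, 12.4, 7.10, 18.6 and 50.8 FPKM in E1 to E5 and 0.619, 4.96, 8.38, 18.9 and 23.7 in NE1 to NE5. Again E5 was highest and NE1 lowest, while the other 8 tumors lay between 4.96 and 23.7. The log2 fold change was 0.68 (SE 0.831, 95% interval -1.16 to 2.52, edgeR FDR = 0.925), and without E5 it was -0.095.

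Fibromodulin, the nearest relative of lumican and abundant in tendon and cartilage, had 0.601, 4.92, 0.0881, 0.652 and 1.73 FPKM in E1 to E5 and 0.0262, 0.420, 1.74, 19.97 and 0.141 in NE1 to NE5. NE4 alone held 1515 reads, while NE1 held 2 and E3 held 6. The ratio of NE4 to NE1 was 762, with an exact 95% counting interval of 211 to 6300 that covers counting error only. The log2 fold change was -1.58 (SE 1.46, 95% interval -4.82 to 1.66, edgeR FDR = 0.897), and it turned to 1.43 without NE4. The ratio of fibromodulin to lumican ran from 0.00597 in NE5 to 1.06 in NE4 (log2 difference of E from NE -0.59, exact adjusted p = 0.976).

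Prolargin, which anchors basement membranes to the underlying connective tissue, had 4.19, 7.52, 0.899, 3.64 and 5.74 FPKM in E1 to E5 and 0.204, 2.77, 3.90, 14.7 and 2.79 in NE1 to NE5. As for its neighbor fibromodulin, NE4 was the highest tumor, E2 the next and NE1 the lowest. Its log2 fold change of -0.22 (SE 0.834, 95% interval -2.07 to 1.63, edgeR FDR = 0.9753) turned to 0.85 without NE4.

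Osteoglycin, first known from bone and present in many connective tissues, had 5.44, 12.8, 21.3, 16.6 and 15.7 FPKM in E1 to E5 and 10.01, 21.4, 17.4, 7.78 and 11.9 in NE1 to NE5. It did not follow the tumors named above, as E1 was lowest, NE4 next to lowest, and NE2 and E3 highest. The log2 fold change was 0.044 (SE 0.358, 95% interval -0.75 to 0.84, edgeR FDR = 0.990).

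Versican had 10.2, 14.2, 15.1, 16.3 and 16.97 FPKM in E1 to E5 and 9.18, 17.1, 15.7, 11.1 and 15.999 in NE1 to NE5. E1, NE1 and NE4 were the 3 low tumors and the other 7 lay between 14.2 and 17.1. The log2 fold change was 0.042 (SE 0.191, 95% interval -0.38 to 0.46, edgeR FDR = 0.982), an interval that stays within a fold change of 2, as did those of osteoglycin and perlecan.

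Perlecan had 34.9, 37.4, 32.8, 29.6 and 38.5 FPKM in E1 to E5 and 39.8, 29.1, 29.3, 31.9 and 34.4 in NE1 to NE5. NE1, the lowest tumor of 7 members, was the highest for perlecan. The means of 34.6 ± 3.59 and 32.9 ± 4.39 (SD, n = 5 each) gave a log2 fold change of 0.043 (SE 0.0960, edgeR FDR = 0.951), and its 95% interval of -0.17 to 0.26 was the narrowest of the 9. Versican per perlecan, the ratio of both large proteoglycans, was 0.231 to 0.587 and did not separate the groups (log2 difference 0.015, exact adjusted p = 0.976).

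The members were also described by their spread between tumors. The SD of log2(CPM + 1) over the 10 tumors was 1.87 for fibromodulin, 1.54 for lumican, 1.39 for prolargin, 1.35 for decorin, 1.06 for asporin and 0.880 for biglycan. The added 1 narrows the spread of genes with low counts, such as asporin and fibromodulin, so the order of these SDs depends on it. Each of these exceeded the SD of at least 96.8% of the 13517 genes tested, whose median was 0.179. Osteoglycin (0.616, above 93.8% of genes) and versican (0.329, above 79.5%) varied less. Perlecan (0.152) was above 39.4% of the genes and below the median. Against genes within 0.5 of its own mean log2(CPM + 1), perlecan lay above 63.9% of 269 genes and asporin above 93.8% of 1296. The share was 93.5% for versican and 97.6% to 99.7% for the other 6 members. Fold ranges from the lowest to the highest tumor were 1.36 for perlecan, 1.86 for versican, 3.94 for osteoglycin, 8.96 for biglycan, 29.2 for decorin, 40.0 for asporin, 72.2 for prolargin and 82.0 for lumican.

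The members were then compared with each other over the 10 tumors, as log2(CPM + 1) in 36 pairs, with permutation p adjusted over the pairs. In total, 10 pairs passed an adjusted p of 0.05 with Pearson's r, each with a positive r, and 7 pairs passed with Spearman's rho. Decorin and lumican, neighbors on chromosome 10, had the highest r (0.970, permutation p = 3e-05, adjusted p = 0.00108; rho 0.976, adjusted p = 0.00108), and r was 0.884 without E5 and NE1. Asporin and lumican had an r of 0.956 (permutation p = 7e-05, adjusted p = 0.00126; rho 0.927), and 0.841 without these tumors. Decorin was also related to asporin (r = 0.930, adjusted permutation p = 0.00264) and to biglycan (r = 0.923, adjusted permutation p = 0.00288). For biglycan with lumican (r = 0.880) and with asporin (r = 0.863), r was 0.599 and 0.524 without E5 and NE1. Their rho missed the threshold (adjusted permutation p = 0.0509 and 0.0528). With only 1 of these tumors left out, the relation to lumican still passed (r = 0.833 without E5 and 0.794 without NE1). That to asporin passed without E5 (r = 0.791) but not without NE1 (r = 0.760).

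Fibromodulin was related to prolargin (r = 0.860, adjusted permutation p = 0.0114; rho 0.927, adjusted p = 0.0048), with an r of 0.802 without E2 and NE4. With biglycan, fibromodulin passed by rho (0.794, adjusted permutation p = 0.0447) but not by r (0.682, adjusted permutation p = 0.0833), and r was 0.815 without E5 and NE1. Prolargin was related to biglycan (r = 0.865, adjusted permutation p = 0.0114) and to decorin (r = 0.849, adjusted permutation p = 0.0144). By rho, the relation with biglycan passed (0.903, adjusted permutation p = 0.00576) and that with decorin did not (0.721, adjusted permutation p = 0.0838). By r, neither relation passed without NE1 (r = 0.761 and 0.664), nor did that with biglycan without E3 (r = 0.844). Without both E5 and NE1, r was 0.945 with biglycan and 0.724 with decorin. Osteoglycin and versican formed a pair of their own (r = 0.805, permutation p = 0.00533, adjusted p = 0.0192). Their rho of 0.685 missed the threshold (adjusted permutation p = 0.116), and r was 0.698 without E1 and NE4. Osteoglycin and its neighbor asporin had an r of 0.300 (adjusted permutation p = 0.621). None of the 8 pairs with perlecan passed. Without both E5 and NE4, 4 of the 36 pairs passed, an alternative chosen after the data were seen.

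**Figure D4:**
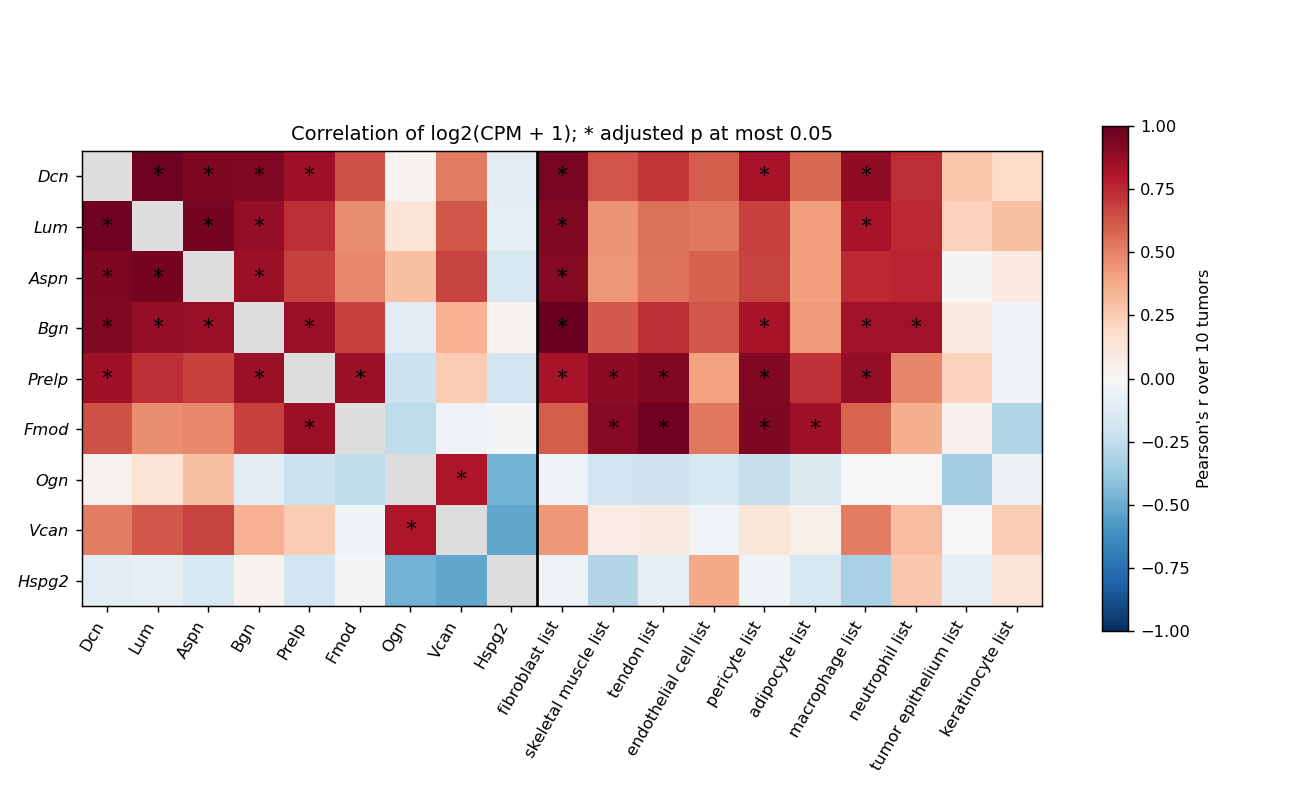
Pearson's r over 10 tumors (color, from -1 to 1) among the 9 genes (left of the line) and between each gene and the score of 10 marker lists (right), with a star where the adjusted permutation p was at most 0.05. Stars fill the block of Dcn, Lum, Aspn and Bgn, and the rows of Ogn, Vcan and Hspg2 hold a single starred pair, Ogn with Vcan.

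Markers of other cell types moved with several members. Of 90 relations between a member and a marker list score, 19 passed an adjusted permutation p of 0.05, each with a positive r, and 17 passed with rho. No member is in any of the lists, and no list held a gene at 0 in every tumor. Some list genes were close to 0, with at most 0.137 CPM for Tnnc2 (skeletal muscle), 0.353 for Ly6g (neutrophil) and 0.144 for Ovol2 (tumor epithelium). The fibroblast score was 3.98 to 6.10 in E and 3.02 to 5.38 in NE, the skeletal muscle score 3.74 to 7.09 and 0.424 to 9.81, and the tendon score 1.51 to 2.82 and 0.944 to 3.49. An unadjusted p of at most 0.05, reached by 4.86% of all genes, was found with higher values in E for 1 of 12 fibroblast genes and 3 of 8 tested neutrophil genes, and with lower values in E for 2 of 4 tested tumor epithelium genes. The tumor epithelium score averaged 1.02 in E and 1.23 in NE (exact permutation p = 0.0873, the smallest of the 10 lists). The fibroblast score was related to biglycan (r = 0.985, permutation p = 1e-05, the smallest that 100000 permutations can give, adjusted p = 0.0009; rho 0.976), and r was 0.949 without E5 and NE1. It was also related to decorin (r = 0.946), lumican (0.928), asporin (0.921) and prolargin (0.823), with adjusted permutation p from 0.0018 to 0.0293. For asporin and lumican r was 0.704 and 0.736 without these 2 tumors.

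Fibromodulin was instead related to the tendon and perichondrium score (r = 0.9746, adjusted permutation p = 0.0009; rho 0.952), the pericyte and smooth muscle score (r = 0.937, adjusted permutation p = 0.0009) and the skeletal muscle score (r = 0.907, adjusted permutation p = 0.00342). Without NE1 and NE4, which lie at the ends, r was 0.983, 0.858 and 0.818. Its relation to the fibroblast score was 0.604 (adjusted permutation p = 0.196). Fibromodulin with the adipocyte score gave an r of 0.844 that was 0.444 without NE1 and NE4. Without NE1 alone this r was 0.816 and did not pass. The tendon list contains 2 relatives of the members, Kera and Chad, and 6 of its 10 genes were high enough to be tested. Its gene tenomodulin (Tnmd) was between 0 and 8.66 CPM. Scx (4.26 to 7.13 CPM) and Mkx (3.48 to 5.56 CPM) of the tendon list varied little, whereas Cilp (2.08 to 235 CPM) and Thbs4 (0.382 to 151 CPM) ranged widely. The muscle actin gene Acta1 was between 1.61 and 6494 CPM. Within the pericyte and smooth muscle list, the desmin gene Des had the widest range, from 2.84 to 841 CPM. Tagln, Higd1b and Cnn1 of the same list were at most 0.419, 0.949 and 1.53 CPM in any tumor. Whether the pericyte score varied apart from skeletal muscle was not tested.

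Prolargin had an r of 0.928 with the tendon score (adjusted permutation p = 0.00399), 0.927 with the pericyte score (adjusted permutation p = 0.0049), 0.892 with the skeletal muscle score (adjusted permutation p = 0.00942), 0.879 with the macrophage score (adjusted permutation p = 0.00705) and 0.823 with the fibroblast score (adjusted permutation p = 0.0293). The relations of prolargin with the skeletal muscle, macrophage and fibroblast scores did not pass without NE1 (r = 0.814, 0.760 and 0.658), nor did the latter 2 without E3 (r = 0.896 and 0.809). Without the 2 farthest tumors the r of prolargin with the skeletal muscle score was 0.615 (NE1 and NE4 left out). With E5 and NE1 left out, its r was 0.823 with the macrophage score and 0.809 with the fibroblast score. By rho its relation with the fibroblast score passed (0.818, adjusted permutation p = 0.0389). Biglycan was further related to the neutrophil, macrophage and pericyte scores (r = 0.840, 0.840 and 0.827), decorin to the macrophage and pericyte scores (0.884 and 0.827) and lumican to the macrophage score (0.827, and 0.197 without E5 and NE1). By rho, the relations of these 3 members and of prolargin to the macrophage score missed the threshold (adjusted permutation p from 0.0929 to 0.271), as did decorin with the pericyte score (adjusted permutation p = 0.0758). The r of decorin with the macrophage score was 0.543 without E5 and NE1, and without NE1 alone it was 0.700 and did not pass. Biglycan with the pericyte score passed by rho (0.952) but not by r without NE1 (0.739), and r was 0.883 without NE1 and NE4. The neutrophil score was related by rho, but not by r, to decorin (rho 0.939, adjusted permutation p = 0.00342), lumican (rho 0.879, adjusted permutation p = 0.0148) and asporin (rho 0.830, adjusted permutation p = 0.0305), and the r of decorin was 0.918 without E5 and NE1. Biglycan passed by rho alone with the tendon score (0.806, adjusted permutation p = 0.0407). Osteoglycin, versican and perlecan passed with none of the 10 lists, by r or rho. The part of other cells or tissue in the members' levels was not tested.

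**Figure D5:**
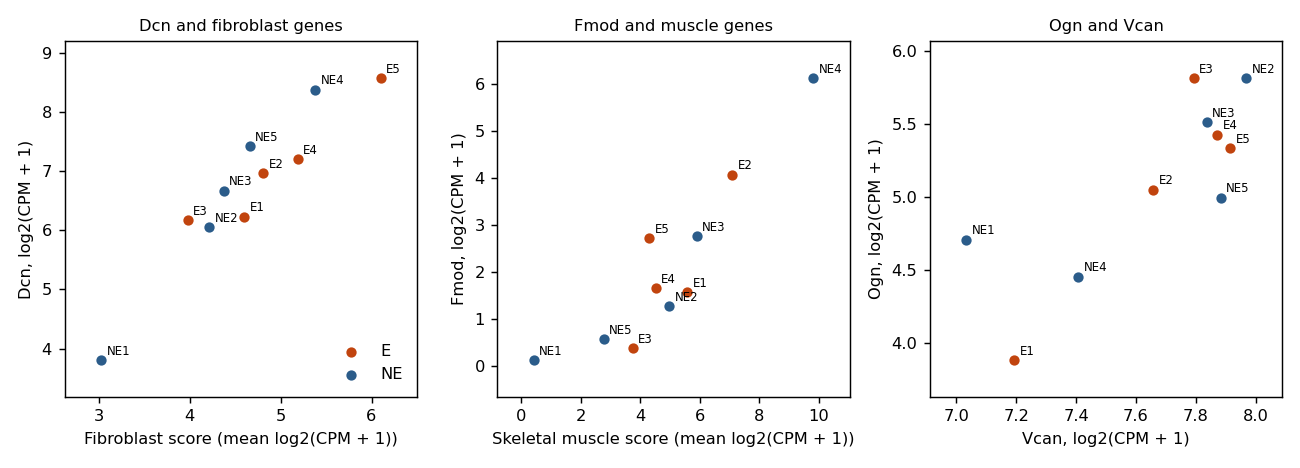
Dcn against the fibroblast score, Fmod against the skeletal muscle score, and Ogn against Vcan, in log2(CPM + 1), with each point a tumor (E red, NE blue). NE1 lies at the low end of the first 2 panels, E5 at the high end for Dcn and NE4 for Fmod, while E1 is lowest for Ogn.

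Among the 13517 genes tested, those most like each member over the 10 tumors were named as a description. For biglycan they were Mfap4 (r = 0.992), a microfibril gene that is also in the fibroblast list, and Gpx3 (0.989), a secreted glutathione peroxidase. Decorin and lumican shared Cpxm1 (0.977 for each), and the other gene was Rnase4 (0.980) for decorin and the stromelysin gene Mmp3 (0.974) for lumican. Asporin was most like Enpp1 (0.961) and periostin, Postn (0.957), a fibroblast list gene. For fibromodulin they were Angptl1 (0.981) and Cpxm2 (0.981), and for prolargin the complement gene C3 (0.984) and Serpina3n (0.983). The genes most like osteoglycin were Ddx46 (0.965) and Filip1l (0.957), and those most like versican were Secisbp2l (0.966) and Ms4a14 (0.960). Perlecan had the loosest matches, Dvl3 (0.914) and Nol6 (0.908).

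Of the other genes of these pathways, none passed the FDR of 0.05, so that the following are values only. Among 11 other small leucine-rich proteoglycan genes, 5 were high enough to be tested and 0 had an unadjusted p of at most 0.05. Podnl1 was the most abundant of them (20.04 ± 1.48 FPKM in E and 14.7 ± 5.62 in NE, SD over 5 tumors). Keratocan (Kera), next to Lum on the chromosome, was between 0 and 1.43 FPKM, highest in NE4 with 75 reads. Of 22 other matrix and cell-surface proteoglycan genes, 16 were tested and 0 had an unadjusted p of at most 0.05. Their most abundant gene was the syndecan gene Sdc4, with means of 126 ± 14.4 FPKM in E and 115 ± 18.1 in NE (SD over 5 tumors).

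Of 13 genes for partners of versican and hyaluronan, 10 were tested and 1 had an unadjusted p of at most 0.05. This was Tnfaip6, which encodes a hyaluronan-binding protein, with 5.39 ± 1.79 FPKM in E and 2.98 ± 0.900 in NE (SD over 5 tumors, log2 fold change 0.81, edgeR FDR = 0.897). Tenascin C (Tnc), the most abundant of them, had 38.6 ± 20.2 FPKM in E and 21.9 ± 12.7 in NE. Hapln1, the neighbor of Vcan, was too low to be tested. Of 6 versican-cleaving proteases 5 were tested, with 0 below that p, and Adamts4 averaged 10.6 FPKM in E and 8.68 in NE.

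Of 12 collagen genes whose products bind small leucine-rich proteoglycans, 11 were tested, 3 had an unadjusted p of at most 0.05 with a positive log2 fold change and 0 with a negative one, beside 4.86% of all genes in either direction. The median log2 fold change of the 11 was 0.68. Col5a1 had means of 65.2 ± 21.4 FPKM in E and 44.2 ± 6.92 in NE (SD over 5 tumors, log2 fold change 0.53, edgeR FDR = 0.897), and Col6a1 107 ± 45.6 and 71.6 ± 3.40 (log2 fold change 0.54, edgeR FDR = 0.897). Col3a1, the most abundant, ranged from 139 to 728 FPKM in E and from 75.4 to 242 in NE. All 11 genes for basement membrane partners of perlecan were tested, with 0 at that p and a median log2 fold change of -0.0027. All 16 receptors and ligands were tested. At that p, 1 had a positive and 1 a negative log2 fold change, beside 4.86% of all genes in either direction. The first, Cd14, a co-receptor in Toll-like receptor signaling, had 33.2 ± 15.6 FPKM in E and 18.6 ± 2.43 in NE (log2 fold change 0.80, edgeR FDR = 0.897). The second, Met, a receptor tyrosine kinase that decorin binds, had 16.3 ± 2.57 and 20.4 ± 2.82 (log2 fold change -0.35, edgeR FDR = 0.897).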

How the data were processed

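Messenger RNA of 10 tumors, 5 of E and 5 of NE, was sequenced, and the sample labels gave each tumor its group and number. By the methods, the authors used Hisat2 for alignment and Stringtie for expression. Their 1 deposited table gives every gene 10 whole-number read counts and 10 FPKM values, and how the counts were made is not given in the sources used here. The deposited FPKM could be rebuilt from count, gene length and library total to a relative deviation of at most 3.78e-14. The methods name a rat assembly, while the table carries mouse Ensembl identifiers.

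Differential expression was computed from the counts with edgeR 4.0.16 under R 4.3.3 (TMM, filterByExpr, glmQLFit and glmQLFTest, Benjamini-Hochberg adjustment over all genes). The filter kept 13517 genes. CPM in correlations, scores and SDs between tumors include the TMM factor, with a pseudocount of 1. Single values were tested with exact permutation tests and correlations with 100000 permutations (scipy 1.17.1, Python 3.11.15). The edgeR fits were tested on simulated data. DESeq2 1.42.0 and limma 3.58.1 were alternatives, beside other normalization, filters, pseudocounts and leaving out each tumor. The limma-voom fit used sample weights, a weight for each tumor.

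The members and all gene lists were chosen with earlier results of these data known. By the rule, named genes were the 9 members and the 2 genes most like each member. Of each list, they were the 2 genes with the smallest p and the most abundant gene. Agrn, Sdc1, Adamts1, Lama4, Lama5, Col4a1 and Lrp1 fell under it but are not described above (edgeR unadjusted p from 0.0631 to 0.416). Single marker genes, genes next to or overlapping a member, and the genes of the last section were named outside this rule, after their values were seen. Each of the 45 pairs of libraries differed beyond sampling noise (chi-square over degrees of freedom at least 7.51). The paper mentions matched pairs in the sequencing and random division of the mice. It does not say that the same number in E and NE marks a pair, a shared litter or a day. The deviations of same-numbered tumors correlated at -0.325 to 0.316 and those of differently numbered tumors at -0.665 to 0.658, which cannot decide whether the numbers mark pairs. The numbers were not used as pairs in the main tests, and values with the number as a block are given below. Counting intervals cover counting error only, since PCR duplicates were not marked in the counts, and p-values measure the spread between these mice.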

Additional observations from a re-analysis of the deposited data

Results flagged for a closer look

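In total, 7 of 46 sets of 5 tumors held a tumor whose gap to the nearest other exceeded Dixon's 95% critical value. Chance gives about 1 in 20 only for independent sets with normal values. These sets come from the same tumors, and gene levels were taken as FPKM without a log. The number of flags can therefore not be set against chance. E5 was set apart within E for Dcn (66.4 FPKM, next 25.2), for Lum (50.8 FPKM, next 18.6) and for the neutrophil score (4.50, next 2.20). NE4 was set apart within NE for Fmod (19.97 FPKM, next 1.74) and for Prelp (14.7 FPKM, next 3.90). NE1 was set apart by its low macrophage score (6.25, next 7.73), and NE5 by its keratinocyte score (3.43, next 0.416). Fmod and Prelp were thus set apart in the same tumor, which also had the highest skeletal muscle score (9.81) and pericyte score (4.07) of the 10. No relation of the keratinocyte score to a member passed the threshold.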

How the results depend on the processing

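No gene passed both limits of a call under any alternative that kept the FDR. DESeq2 gave 3 genes at an FDR of at most 0.05 with no limit on the fold change. With unadjusted p of at most 0.05 in place of the FDR, 56 genes passed with the fold limit. At that p alone, edgeR gave 657 genes, DESeq2 800, edgeR's exact test 352 and limma-voom with sample weights 1800. With the replicate number as a block there were 0 calls and 714 genes at that p, among them Aspn (log2 fold change 0.93, unadjusted p = 0.0279), and Fmod and Prelp turned to 0.85 and 0.37.

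Under the alternatives, 151 log2 fold changes of members kept their sign, 28 changed it and 0 passed the limits of a call. For Fmod, limma-voom with sample weights gave 1.23 and limma-trend with a pseudocount of 0.1 gave 0.13. For Prelp, limma-voom gave 0.54 and limma-trend 0.20 and 0.45 with pseudocounts of 1 and 0.1, while Ogn and Vcan gave -0.25 and -0.12 with limma-voom. Without both E5 and NE4, log2 fold changes were 1.40 (Fmod), 0.73 (Prelp), -0.12 (Ogn) and -0.069 (Vcan), and differences of mean log2(FPKM + 1) were 0.47 (Fmod), -0.19 (Ogn) and -0.036 (Vcan). The Fmod difference was 0.13 with a pseudocount of 0.1. The log2 ratio of Bgn to Dcn was 0.062 with 1 added to the FPKM. Without both tumors, Fmod to Lum was 0.50 and Vcan to Hspg2 -0.066. The cause was not tested.

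Leaving out each tumor in turn, log2 fold changes ran from -0.39 to 0.87 (Dcn), -0.095 to 1.14 (Lum), -2.64 to 1.43 (Fmod), -0.52 to 0.85 (Prelp), -0.15 to 0.26 (Ogn) and -0.067 to 0.16 (Vcan). Those of Bgn (0.12 to 0.98), Aspn (0.33 to 1.24) and Hspg2 (0.0013 to 0.12) kept their sign. Differences of mean log2(FPKM + 1) ran from -0.058 to 0.96 (Dcn), -0.57 to 0.56 (Fmod), -0.25 to 0.67 (Prelp), -0.13 to 0.32 (Ogn) and -0.042 to 0.20 (Vcan). Log2 ratios ran from -0.21 to 0.34 (Bgn to Dcn), -1.55 to 0.31 (Fmod to Lum) and -0.19 to 0.14 (Vcan to Hspg2).

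Steps in the order of levels that passed numbered 2, with 1 for the order by median FPKM and 1 to 4 when leaving out a tumor. The order was made anew each time. Pairs of members that passed numbered 7 to 12 when leaving out a tumor and 4 without both E5 and NE4. Relations with the lists that passed numbered 14 to 23. The single relations that had passed still did so in 362 refits and no longer in 44, with Ogn and Vcan lost without E1 and without NE4. Requiring 10 counts in every tumor gave no value for Fmod. At 2 to 10 reads in 3 tumors, the level of Fmod is limited by depth.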

Other observations

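Outside the 9 members, the tested small leucine-rich proteoglycan genes did not share a single profile over the tumors. Podnl1 was highest in NE1 (23.2 FPKM) and lowest in NE4 (7.56), while the related gene Podn was lowest in NE1 (0.0203) and highest in NE4 (2.94). Tsku, which encodes tsukushi, ranged from 7.49 FPKM in NE4 to 11.2 in E5. Ecm2, next to Aspn on chromosome 13, ran from 0.877 in NE1 to 1.87 in NE4, and Omd, between Aspn and Ogn, from 0.233 in NE4 to 1.36 in E5. No relation between these genes and the members was tested.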
